A study of Mus musculus with 11 samples.

Results

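The genes described here encode the MYC, MAX and MXD network of transcription factors and were measured in 720, a cell line of murine T-cell acute lymphoblastic leukaemia (T-ALL). The members were 9 listed genes, Myc, Mycn, Max, Mxd1, Mxd3, Mxd4, Mnt, Mlx and Mga, matched by symbol to probe sets that carry a single gene symbol. All 9 were found among the 22180 genes measured, each with 1 probe set, and no filter on dim values was applied. Total RNA was measured on single-colour microarrays in 11 samples. The line came from a Tcf12+/- mouse that expressed a Tal1 transgene from the Lck promoter, which is active in T-lineage cells, so all groups share the Tal1 transgene and the loss of 1 copy of Tcf12, which encodes an E protein. Exposure lasted 8 h. The compounds are labelled as inhibitors of the Runt domain, by which RUNX factors bind DNA. The 3 arrays of AI-7-54 (replicates 1, 3 and 4) and the 4 of AI-8-45 came from cultures at 100 µM, and the 4 of AI-9-54 from cultures at 50 µM. The first pair is matched in dose and time. AI-9-54 differs from the others in dose, so in its comparisons compound and dose cannot be told apart. A vehicle control was not analysed here, and each difference below is between compounds. All samples are of 1 line, and the labels do not say whether replicates were separate cultures, so p-values measure the spread between these samples, which may be technical.

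The network works through dimers that read the same DNA letters. MYC and MYCN must pair with MAX to bind the E-box, and as MYC:MAX they raise transcription of genes for ribosome production, nucleotide synthesis and growth. MXD1, MXD3, MXD4 and MNT also pair with MAX, but recruit the SIN3 corepressor and lower transcription at such sites. MLX is a MAX-like partner of the glucose-sensing MONDO factors and of some MXD proteins, and MGA pairs with MAX inside a polycomb-type repressor complex. In T-ALL, NOTCH1 and RUNX1 are known to act on Myc through a distant enhancer.

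Promoter windows of members are shown because the network binds the E-box CACGTG, which reads the same on both strands, and because 2 of the genes whose level differed between compounds, Max and Mxd4, hold it. Each window runs from 250 bases before to 50 after a start site chosen in the window table (RefSeq, GRCm38.p6), and 8 of 9 members had one, all but Myc. That start equals the gene's outermost annotated start for Mycn and Mxd4 and lies inside the gene for the others, by 75 bases for Max and Mxd1, 118 for Mnt, 169 for Mxd3, 583 for Mlx and 24725 for Mga. Distances below count from the window's start site. The E-box stood in 4 of these 8, in Max, Mxd4, Mnt and Mlx, against 7.15% of all 32851 windows in the table. It stood in 16 of 60 windows of MYC-activated targets (26.7%), a list of 60 genes, of which 50 had a window. In the following lines capitals mark the E-box. The whole window of 300 bases is given for Max (chr12:76962199-76962498, minus strand), where the E-box begins 3 bases before that site, and for Mxd4 (chr5:34187661-34187960, minus strand), where it begins 219 bases before it.
Max: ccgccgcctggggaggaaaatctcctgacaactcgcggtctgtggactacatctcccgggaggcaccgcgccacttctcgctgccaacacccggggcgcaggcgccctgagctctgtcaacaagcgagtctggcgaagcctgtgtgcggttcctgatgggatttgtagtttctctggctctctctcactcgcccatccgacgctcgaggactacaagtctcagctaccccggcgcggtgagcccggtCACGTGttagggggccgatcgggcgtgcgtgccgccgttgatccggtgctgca
Mxd4: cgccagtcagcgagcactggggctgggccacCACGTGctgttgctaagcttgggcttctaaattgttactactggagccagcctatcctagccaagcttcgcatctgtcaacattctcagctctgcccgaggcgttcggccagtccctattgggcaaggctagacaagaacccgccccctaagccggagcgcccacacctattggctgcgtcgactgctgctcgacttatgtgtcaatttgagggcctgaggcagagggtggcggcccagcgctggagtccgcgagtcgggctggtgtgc
For Mlx (chr11:101087223-101087282, plus strand) and Mnt (chr11:74830774-74830833, plus strand), 60 bases around the E-box are given, which begins 40 and 123 bases before the window's start site. Set against the outermost annotated starts, the E-boxes of Max and Mlx lie inside their annotated genes.
Mlx: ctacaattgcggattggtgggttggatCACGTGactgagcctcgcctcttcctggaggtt
Mnt: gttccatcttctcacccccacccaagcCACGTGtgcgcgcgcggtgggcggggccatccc
The RUNX letters TGTGGT or TGCGGT, on either strand, stood in 1 of 8 member windows (Max, as TGCGGT, 106 bases before the site) and in 22.4% of all windows. A match is a description of these letters in these windows and not a measured binding site.

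The first principal component of all genes (36.2% of the variance) ordered the arrays by compound, and the second (19.6%) put replicates 1 and 2 above 0 and replicates 3 and 4 below 0 in every group. This replicate set was therefore a factor in the model. AI-8-45 replicate 3 stood apart on the third component (-16.3, against -3.82 to 6.51 on the other 10 arrays). Some results for Myc, Max, Mxd1, Mxd4 and Mlx are also given without it. Values of single genes in the lists are not. Of 11 measured T-lineage markers, 8 lay above the median of all genes (6.91), as did 1 of 7 B-lineage, 1 of 8 myeloid, 1 of 3 erythroid and 4 of 8 stromal and endothelial markers. The mean of the T-lineage markers was 9.65 to 9.87 on the AI-7-54 arrays, 9.52 to 9.73 on AI-8-45 and 9.24 to 9.47 on AI-9-54. The means of the 4 other marker lists over all arrays lay within 5.90 to 6.09 (B lineage), 5.92 to 6.05 (myeloid), 6.95 to 7.24 (erythroid) and 7.37 to 7.55 (stromal and endothelial), and limma called 0 of their genes in every comparison, with or without the replicate set (0 to 3 genes of a list had an unadjusted p under 0.05). In such bulk RNA, fewer cells of a type and less RNA per cell cannot be told apart.

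Myc (probe set 17311846), which encodes the activator at the centre of the network, was lowest with AI-9-54. Its log2 expression values were 12.15, 11.91 and 11.96 on the AI-7-54 arrays, 12.05, 11.93, 11.89 and 11.84 on the AI-8-45 arrays, and 11.67, 11.69, 11.26 and 11.32 on the AI-9-54 arrays, each in the order of the replicate numbers. All 4 AI-9-54 arrays lay below all 7 others, while the AI-7-54 and AI-8-45 arrays overlapped. The group means were 12.004 ± 0.127 (SD, n = 3), 11.93 ± 0.09 (n = 4) and 11.49 ± 0.23 (n = 4). AI-9-54 was lower than AI-7-54 by a log2 difference of -0.56 (95% interval -0.69 to -0.43), a 1.47-fold lower level, with a limma adjusted p of 4.99e-05. Against AI-8-45 the difference was -0.44 (-0.56 to -0.32, 1.36-fold lower, limma adjusted p 0.000897). That call rested on the replicate set in the model, since without it the limma adjusted p was 0.0519 at the same difference. Without AI-8-45 replicate 3 it was -0.41 (0.00374).

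Between the compounds matched in dose, the Myc difference of AI-8-45 minus AI-7-54 was -0.12 (-0.25 to 0.01) and missed the threshold (limma adjusted p 0.326). That does not show equal levels. Mycn (probe set 17279998), the paralogue best known from neural and embryonic tissue, was dim. Its values lay between 5.98 and 6.17 on the 11 arrays, below every array median (6.61 to 6.68), and no background level was used. The groups overlapped, with means of 6.11 ± 0.06 (SD, n = 3) for AI-7-54, 6.13 ± 0.02 (n = 4) for AI-8-45 and 6.06 ± 0.07 (n = 4) for AI-9-54, and no comparison was called (limma adjusted p 0.485 to 0.936).

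Max (probe set 17282090), the shared dimer partner, was lower with AI-8-45 and AI-9-54 than with AI-7-54. The values were 10.79, 10.88 and 10.79 with AI-7-54, 10.67, 10.65, 10.57 and 10.54 with AI-8-45, and 10.59, 10.56, 10.41 and 10.60 with AI-9-54. All 8 arrays of the latter groups lay below the 3 AI-7-54 arrays, and these 8 overlapped among themselves. At the matched dose, AI-8-45 minus AI-7-54 was -0.22 (95% interval -0.34 to -0.10, 1.16-fold lower, limma adjusted p 0.0243). This call ended without AI-7-54 replicate 3 (-0.18, limma adjusted p 0.119) or replicate 4 (-0.23, 0.0652), and without AI-8-45 replicate 3 (-0.22, 0.0595) or replicate 4 (-0.20, 0.0753). Against AI-7-54, the AI-9-54 difference was -0.29 (-0.41 to -0.17, 1.22-fold lower, limma adjusted p 0.00259), a call kept in each of 11 fits with 1 array left out (0.00273 to 0.0154). AI-9-54 minus AI-8-45 was -0.07 (-0.18 to 0.04, limma adjusted p 0.602).

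**Figure D1:**
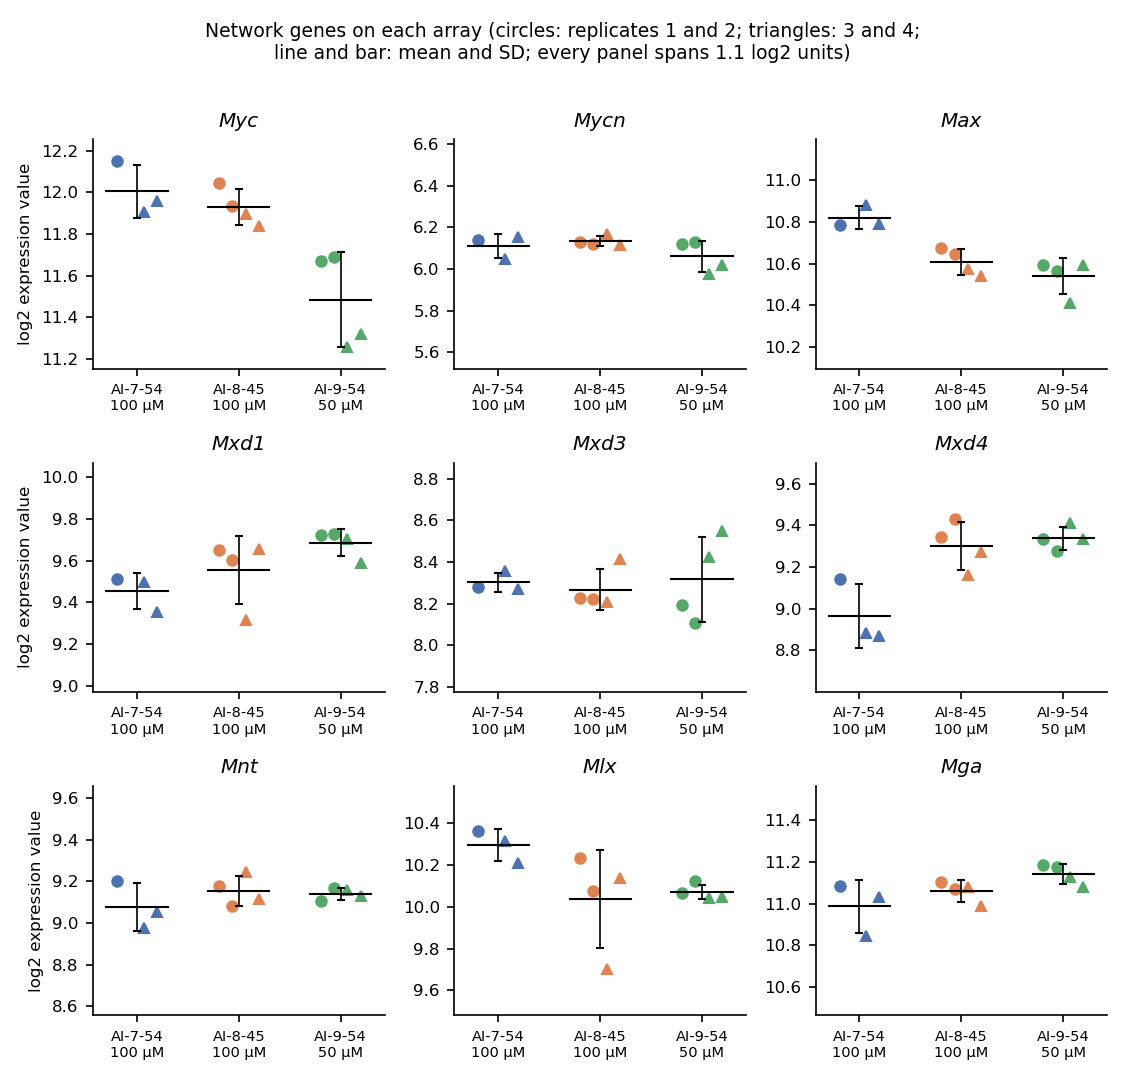
Log2 expression values (y axis) of the 9 network genes on each array, by compound and dose (x axis), with replicates 1 and 2 as circles, replicates 3 and 4 as triangles, and the group mean and SD as lines and bars. Myc is lowest on the 4 AI-9-54 arrays (11.26 to 11.69), Max is highest on the 3 AI-7-54 arrays (10.79 to 10.88), and Mxd4 is lowest on them (8.87 to 9.14).

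Among the MXD repressors, Mxd4 differed between compounds. Mxd4 (probe set 17447218), linked to cells that leave the cycle, measured 9.14, 8.88 and 8.87 with AI-7-54, 9.34, 9.43, 9.16 and 9.27 with AI-8-45, and 9.33, 9.27, 9.41 and 9.33 with AI-9-54. The 3 AI-7-54 arrays lay below all 8 others, the nearest pair being AI-7-54 replicate 1 (9.14) and AI-8-45 replicate 3 (9.16). At the matched dose, AI-8-45 was higher than AI-7-54 by a log2 difference of 0.32 (95% interval 0.17 to 0.47, 1.25-fold, limma adjusted p 0.0113). The call ended without AI-7-54 replicate 3 (0.30, limma adjusted p 0.0571) or replicate 4 (0.29, 0.0525) and held without AI-8-45 replicate 3 (0.36, 0.0137). AI-9-54 was higher than AI-7-54 by 0.36 (0.21 to 0.50, 1.28-fold, limma adjusted p 0.00274), a call kept in each of 11 fits with 1 array left out (0.00211 to 0.0161). AI-9-54 and AI-8-45 differed by 0.04 (-0.10 to 0.17, limma adjusted p 0.862).

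Mxd1 (probe set 17468511), whose product MAD1 is the founding MXD repressor, had the same order of group means, and passed no test in the model as reported. Its values were 9.51, 9.50 and 9.36 with AI-7-54, 9.65, 9.60, 9.31 and 9.66 with AI-8-45, and 9.72, 9.73, 9.70 and 9.59 with AI-9-54. All 4 AI-9-54 arrays lay above the 3 AI-7-54 arrays, while the AI-8-45 arrays overlapped both groups, with replicate 3 below the rest. AI-9-54 minus AI-7-54 was 0.21 (95% interval 0.06 to 0.37, limma adjusted p 0.0621), and it passed without AI-8-45 replicate 3 (0.22, limma adjusted p 0.00911) or replicate 4 (0.21, 0.0383). It also passed in 6 of the 12 other alternatives (limma adjusted p 0.0216 to 0.322 over the 12), namely with only the groups compared, quantile normalization, either filter on dim genes, the intensity trend and array weights. AI-8-45 minus AI-7-54 was 0.08 (-0.07 to 0.24, limma adjusted p 0.629), and 0.17 without AI-8-45 replicate 3 (0.111). Mxd3 (probe set 17292828), the MXD gene tied to S phase, showed no order by compound. Its means were 8.30 ± 0.05 (SD, n = 3), 8.27 ± 0.10 (n = 4) and 8.32 ± 0.20 (n = 4) for AI-7-54, AI-8-45 and AI-9-54, and the limma adjusted p lay between 0.796 and 0.983. With AI-9-54 it measured 8.19 and 8.11 in replicates 1 and 2 and 8.42 and 8.55 in replicates 3 and 4.

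Mlx (probe set 17256537) was lower on average with AI-8-45 and AI-9-54 than with AI-7-54, without passing the test. It measured 10.36, 10.32 and 10.21 with AI-7-54, 10.24, 10.07, 9.70 and 10.14 with AI-8-45, and 10.07, 10.12, 10.04 and 10.05 with AI-9-54. The AI-9-54 arrays lay below the AI-7-54 arrays, and AI-8-45 replicate 3 was the lowest of all. AI-8-45 minus AI-7-54 was -0.28 (95% interval -0.48 to -0.08, limma adjusted p 0.0809). It was -0.16 (0.109) without AI-8-45 replicate 3 and -0.35 without replicate 4, where it passed (limma adjusted p 0.0362). It stayed uncalled in 11 of the 12 other alternatives and passed in the remaining one (limma adjusted p 0.0401). AI-9-54 minus AI-7-54 was -0.25 (-0.44 to -0.05, limma adjusted p 0.0839), and it passed without AI-8-45 replicate 3 (-0.23, 0.00662), with only the groups compared (0.00859), among genes above the median (0.0446) and with array weights (0.0465).

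Mnt and Mga had the narrowest ranges of the brighter members. Mnt (probe set 17252817), the broadly expressed MAX-binding repressor, lay between 8.97 and 9.24 on the 11 arrays. Its differences were 0.07 for AI-8-45 minus AI-7-54 (95% interval -0.06 to 0.20), 0.06 for AI-9-54 minus AI-7-54 (-0.07 to 0.19) and -0.01 for AI-9-54 minus AI-8-45 (-0.13 to 0.10). Mga (probe set 17374906), the scaffold that joins MAX to a polycomb-type complex, lay between 10.84 and 11.19. It was not called in any comparison, its widest difference being that of AI-9-54 minus AI-7-54, at 0.14 (0.03 to 0.25, limma adjusted p 0.0841), which passed among genes above the median (0.0395) and with the intensity trend (0.0406).

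Counted over the members, AI-8-45 and AI-7-54 differed in 2 of 9 genes, with Max lower and Mxd4 higher. In the background, limma called 8.79% of the 22180 genes in that comparison, 5.19% lower and 3.59% higher. AI-9-54 and AI-7-54 differed in 3 of 9, with Myc and Max lower and Mxd4 higher, where 18.2% of all genes were called, 9.21% lower and 8.99% higher. AI-9-54 and AI-8-45 differed in 1 of 9, Myc, where 3.68% of all genes were called, 1.76% lower and 1.92% higher. With 9 members, 1 gene moves a share by 11.1 percentage points, so these counts say little about the members as a group. Without the replicate set in the model, 2, 3 and 0 members were called, against 5.66%, 14.2% and 1.31% of all genes. Groups did not overlap in 2, 5 and 1 of the 9 members, against 15.9%, 23.2% and 6.67% of all genes. The comparisons with AI-7-54 share its 3 arrays, so an array of that group that is high or low moves both.

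**Figure D2:**
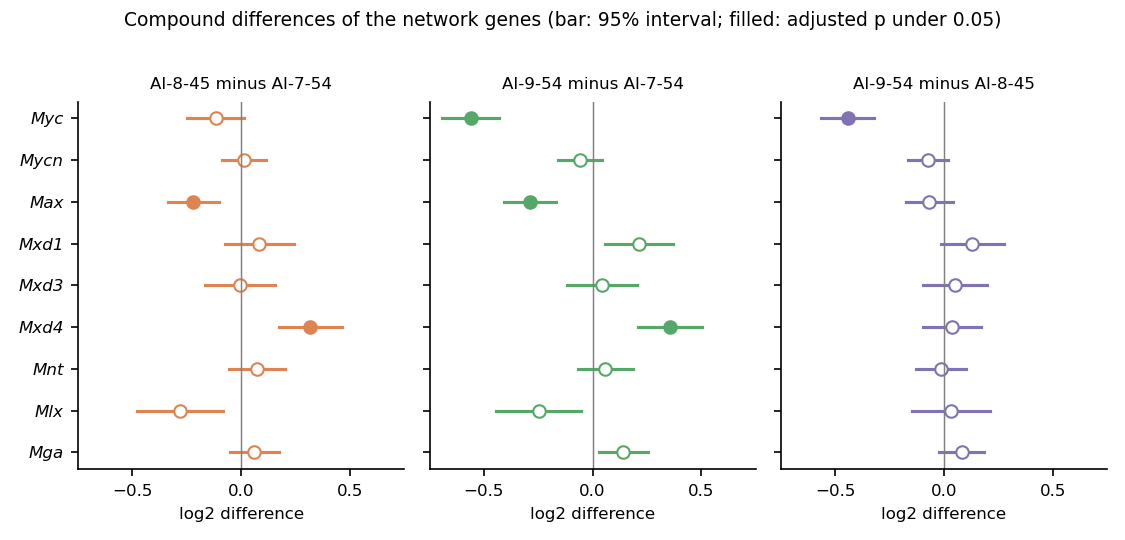
Log2 differences (x axis) of the 9 network genes in the 3 comparisons, with bars for 95% intervals and filled points for a limma adjusted p under 0.05. Myc is the lowest point in both AI-9-54 comparisons (-0.56 and -0.44), and Max and Mxd4 are filled on opposite sides of 0 in both comparisons with AI-7-54.

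Several members also differed between the replicate sets. Replicates 3 and 4 lay below replicates 1 and 2 for Myc by a fitted log2 difference of -0.25 ± 0.05 (SE), and above them for Mxd3 by 0.17 ± 0.06, given here as a description because the set was chosen for separating these arrays. The Myc difference of AI-9-54 minus AI-7-54 was -0.47 in the set of replicates 1 and 2, and -0.64 in that of replicates 3 and 4 (limma adjusted p 0.00172). Replicates 1 and 2 hold a single AI-7-54 array, so values against it are given with no p. Against AI-8-45 it was -0.31 (limma adjusted p 0.239) and -0.58 (0.0175). Mxd4 was higher with AI-9-54 than with AI-7-54 by 0.16 and 0.49 (limma adjusted p 0.00549 in replicates 3 and 4), and with AI-8-45 than with AI-7-54 by 0.25 and 0.34 (0.0434). For Max the differences from AI-7-54 were -0.12 and -0.28 (0.115) with AI-8-45, and -0.21 and -0.33 (0.0407) with AI-9-54. Every one of these values kept its sign in both sets. In limma's test of whether a difference depends on the set, 0 of 9 members passed in any comparison, where 0, 0.0406 and 0.0135% of all genes did, and 1, 2 and 3 members had an unadjusted p under 0.05. Among these were Mxd4 between AI-9-54 and AI-7-54 (0.33 larger in replicates 3 and 4, adjusted p 0.418) and Myc between AI-9-54 and AI-8-45 (-0.27, adjusted p 0.74).

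Of 11 further measured genes of E-box factors around the members, 2 were higher with AI-9-54 than with AI-7-54, a share of 18.2%, equal to the 18.2% of all genes called there. With limma, 0 were called between AI-8-45 and AI-7-54 (2 at an unadjusted p under 0.05) and 0 between AI-9-54 and AI-8-45 (0), in the model without the replicate set as well. The 2 higher genes were Mxi1, the remaining MXD-family gene (9.59 against 9.43, a log2 difference of 0.18, limma adjusted p 0.0345, and 0.243 without the replicate set in the model), and Bhlhe40, a repressor in the circadian clock (0.22, 0.0152). Mxi1 was 0.15 higher with AI-8-45 than with AI-7-54, without passing (limma adjusted p 0.121). The MONDO partner genes Mlxip and Mlxipl differed by at most 0.11 in size in any comparison.

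Of 18 MYC cofactor genes, 4 were lower and none higher with AI-8-45 than with AI-7-54, with a median difference of -0.02 against 0.00 for all genes. They were Wdr5, a chromatin scaffold that recruits MYC (-0.29), the ATPase gene Ruvbl2 (-0.26), the acetyltransferase gene Kat2a (-0.20) and the chromatin remodeller gene Smarcb1 (-0.18, not called without the replicate set, limma adjusted p 0.0694). After AI-9-54, 5 were lower than with AI-7-54 and 1 was higher, with Kat2a at -0.41, Ruvbl1 at -0.36, Wdr5 at -0.31 and Ruvbl2 at -0.29, and Kat2b, the paralogue of Kat2a, higher at 0.18. Kat2a was also the only cofactor gene called between AI-9-54 and AI-8-45 (-0.20, limma adjusted p 0.0127). Called shares of the cofactor genes were 22.2% with AI-8-45 and 33.3% with AI-9-54 against AI-7-54, beside 8.79% and 18.2% of all genes. Between AI-9-54 and AI-8-45 the share was 5.56%, beside 3.68%. Of 12 genes of the MGA polycomb complex, the same 3 were lower with AI-8-45 and with AI-9-54 than with AI-7-54, the E2F partner Tfdp1 (-0.31 and -0.43), the methyl-lysine reader L3mbtl2 (-0.34 and -0.33) and the ring-finger subunit Pcgf6 (-0.31 and -0.30). That is a share of 25% in both comparisons, beside 8.79% and 18.2% of all genes called. Mga itself, which holds this complex to MAX, did not pass in either. Of 14 corepressor genes, 1 was higher with AI-8-45 than with AI-7-54, the demethylase gene Kdm5a (0.20), and 3 with AI-9-54, Kdm5a (0.34), Arid4b (0.25) and Ing2 (0.21, and not called without the replicate set, limma adjusted p 0.0727). These shares of 7.14% and 21.4% are near the 8.79% and 18.2% of all genes called. Between AI-9-54 and AI-8-45, limma called 0 of the 14 corepressor genes (3 at an unadjusted p under 0.05) and 0 of the 12 genes of the MGA complex (1), with or without the replicate set.

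Of 17 measured genes that set how long the MYC protein lasts, 5 were lower and 4 higher with AI-9-54 than with AI-7-54. Without the replicate set these counts were 2 and 2, where 14.2% of all genes were called. Skp2, a ubiquitin ligase subunit that acts on MYC, was lower by a log2 difference of -0.43 (limma adjusted p 2.36e-05), followed by the kinase gene Plk1 (-0.25) and the deubiquitinase genes Usp36 (-0.23) and Usp28 (-0.21). Fbxo32, a ligase subunit and atrophy gene, was higher by 0.66 (limma adjusted p 0.00182), with 0.32 within replicates 1 and 2 and 0.90 within replicates 3 and 4. The kinase genes Pim1 (0.36) and Pim2 (0.28) and the ligase gene Btrc (0.16) were also higher. Without the set, Plk1, Usp36, Pim1 and Pim2 were not called (limma adjusted p 0.143, 0.117, 0.102 and 0.0616). At the matched dose 2 were lower with AI-8-45 than with AI-7-54, Skp2 (-0.26) and Usp36 (-0.25, not called without the replicate set, limma adjusted p 0.134). In the comparison of AI-9-54 with AI-8-45, Plk1 (-0.26) and Skp2 (-0.17) were lower, and neither was called without the replicate set. Called shares of the 17 were 52.9% with AI-9-54 and 11.8% with AI-8-45 against AI-7-54, beside 18.2% and 8.79% of all genes. Between AI-9-54 and AI-8-45 the share was 11.8%, beside 3.68%.

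The MYC-activated targets stood lower with AI-8-45 as well as with AI-9-54, each against AI-7-54. The Myc difference from AI-7-54 was -0.56 with AI-9-54, which was called. With AI-8-45 it was -0.12 (interval -0.25 to 0.01), which was not called and does not show an unchanged level. Max (-0.22) and Mxd4 (0.32) were called between AI-8-45 and AI-7-54. Whether the levels of these members account for the target differences was not tested. Of 60 measured targets, 42 were lower and none higher with AI-8-45 than with AI-7-54 (37 lower without the replicate set, 37 to 43 with 1 array left out), with a median log2 difference of -0.33 against 0.00 for all genes. Leading were the ribosome biogenesis gene Rrp12 (-0.71 ± 0.05, SE), the spermidine synthase gene Srm (-0.68 ± 0.06), the RNA polymerase I subunit gene Polr1b (-0.65 ± 0.06) and the branched-chain transaminase gene Bcat1 (-0.59 ± 0.07, limma adjusted p 0.000321, but 0.144 without the replicate set). After AI-9-54, 47 were lower than with AI-7-54 and 2 higher (44 and 1 without the set), with a median of -0.39. Among them the nucleoside diphosphate kinase gene Nme1 was at -1.14 ± 0.25, Srm at -0.97 ± 0.06, Rrp12 at -0.94 ± 0.05 and the folate enzyme gene Shmt1 at -0.86 ± 0.05. The 2 higher genes were Slc3a2, the heavy chain of amino acid exchangers (0.40), and the hexokinase gene Hk2 (0.39, and not called without the set, limma adjusted p 0.428). Called shares of the 60 targets were 70% with AI-8-45 and 81.7% with AI-9-54, beside 8.79% and 18.2% of all genes. The list was compiled with earlier results on ribosome genes in these samples known, so its direction is not independent evidence.

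Between AI-9-54 and AI-8-45, where Myc differed by -0.44, 11 of the 60 targets were lower and 3 higher (7 and 0 without the replicate set), with a median of -0.09. The lower ones were led by the translation initiation helicase gene Eif4a1 (-0.47), the nucleolar gene Ppan (-0.34), Srm (-0.30) and Shmt1 (-0.28). The higher ones were Hk2 (0.47), Slc3a2 (0.41) and the amino acid transporter gene Slc7a5 (0.25). In all, 23.3% of the targets were called, beside 3.68% of all genes. The count of lower targets was 5 without AI-8-45 replicate 1, 7 without AI-9-54 replicate 1 and 7 without AI-9-54 replicate 3. By array, the mean log2 value of the 60 targets was 10.44 to 10.47 with AI-7-54, 10.10 to 10.18 with AI-8-45 and 10.02 to 10.09 with AI-9-54. The 3 ranges did not overlap, but AI-8-45 replicate 3 (10.098) and AI-9-54 replicate 2 (10.092) lay close together. The wide gap was between AI-7-54 and the rest.

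**Figure D3:**
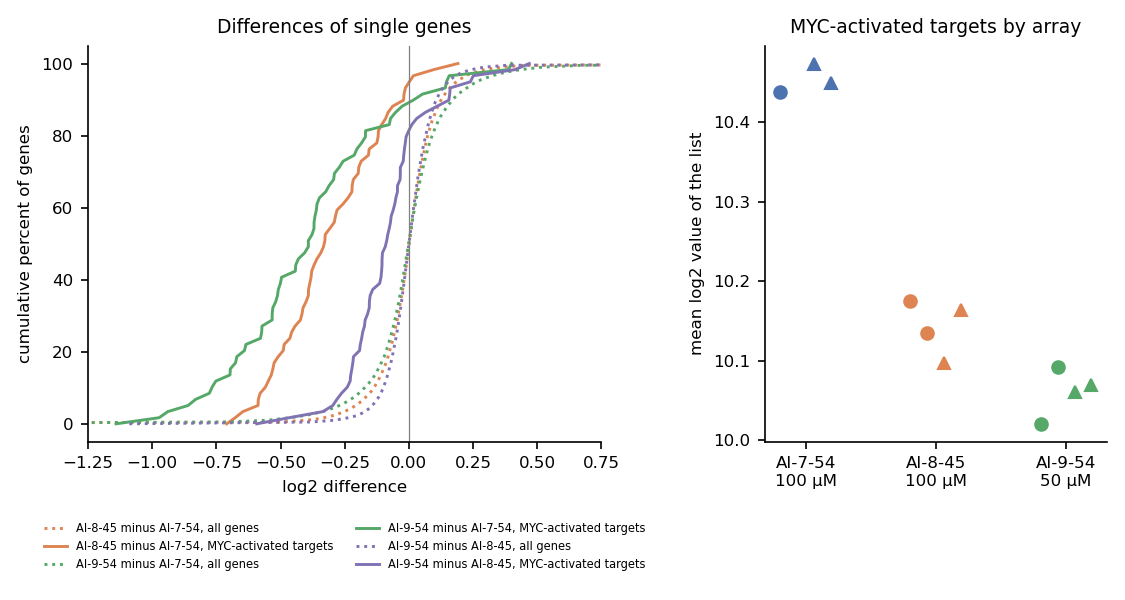
Left, cumulative percent of genes (y axis) against their log2 difference (x axis), for the 60 MYC-activated targets (solid) and all 22180 genes (dotted) in the 3 comparisons; right, the mean log2 value of the targets on each array by compound and dose, circles for replicates 1 and 2 and triangles for 3 and 4. The target medians are -0.33, -0.39 and -0.09, and the AI-7-54 arrays (10.44 to 10.47) lie above all others.

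Of 18 measured genes that MYC is known to repress, 3 were higher and 1 lower with AI-8-45 than with AI-7-54, with a median of 0.04. The higher ones were the antiproliferative genes Btg2 (0.44) and Btg1 (0.42) and the cell-cycle inhibitor gene Cdkn1b, which encodes p27 (0.35, limma adjusted p 0.00157, but 0.304 without the replicate set), and the lower one was the integrin gene Itgb1 (-0.16). After AI-9-54, 5 were higher and 1 lower than with AI-7-54 (median 0.04), with the glucocorticoid-induced gene Tsc22d3 at 0.50, Cdkn1b at 0.45 (limma adjusted p 0.0765 without the set), Btg1 at 0.41 and Gadd45b at 0.39, and the phosphatase gene Dusp2 lower at -0.30. Tsc22d3 was higher (0.41) and Btg2 lower (-0.34) with AI-9-54 than with AI-8-45. Called shares of the 18 were 22.2% with AI-8-45 and 33.3% with AI-9-54 against AI-7-54, beside 8.79% and 18.2% of all genes. Between AI-9-54 and AI-8-45 the share was 11.1%, beside 3.68%.

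Among targets of MLX with the MONDO factors, the arrestin-fold genes were higher with AI-9-54. Arrdc3 was 1.47 higher on the log2 scale than with AI-7-54 (limma adjusted p 1.75e-07), Arrdc4 0.46 higher and Txnip, which restrains glucose uptake, 0.40 higher. The same 3 were higher with AI-9-54 than with AI-8-45 (0.83, 0.48 and 0.23). At the matched dose, Arrdc3 (0.64) and Txnip (0.18) were higher with AI-8-45 than with AI-7-54. The lipid synthesis genes Fasn and Acaca, which are also targets of sterol-regulated factors, were lower than with AI-7-54 with AI-8-45 (-0.41 and -0.43) and with AI-9-54 (-0.53 and -0.46). Klf10 was lower as well (-0.27 and -0.26, not called without the replicate set, limma adjusted p 0.161 and 0.118). Of the 9 measured genes, 2 were thus higher and 3 lower with AI-8-45, 3 higher and 3 lower with AI-9-54, and 3 higher and none lower between these compounds. These are shares of 55.6%, 66.7% and 33.3%, beside 8.79%, 18.2% and 3.68% of all genes called.

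The next list held 18 measured genes, taken here as possible regulators upstream of Myc in T-cell leukaemia. With AI-9-54, 7 were lower and none higher than with AI-7-54 (4 lower without the replicate set). Against AI-8-45, 5 were lower and none higher with AI-9-54 (1 without it). These shares of 38.9% and 27.8% stand beside 9.21% and 1.76% of all genes called lower. Notch3 differed by -0.68 and -0.67, neither of which was called without the set (limma adjusted p 0.135 and 0.198). The T-lineage factor genes Bcl11b (-0.41 and -0.41) and Gata3 (-0.29 and -0.21, the second not called without the set, 0.397) and the cell-cycle gene E2f1 (-0.40 against AI-7-54) were also lower, as was Notch1 against AI-8-45 (-0.26, limma adjusted p 0.0107, and 0.481 without the set). Runx1, named here after its values were seen because the compounds are called Runt domain inhibitors, was lower with AI-9-54 by -0.26 against AI-7-54 (limma adjusted p 0.000445) and by -0.18 against AI-8-45 (0.0119), and neither was called without the set (0.157 and 0.444). Between the compounds matched in dose, E2f1 alone was called (-0.43), a share of 5.56%, near the 5.19% of all genes called lower there. Among T-lineage markers, 6 of 11 were lower with AI-9-54 than with AI-7-54 and 5 of 11 than with AI-8-45. With AI-8-45, 3 of 11 were lower than with AI-7-54, and none was higher in any comparison. Without the replicate set these counts were 5, 3 and 1. With the set the shares were 54.5%, 45.5% and 27.3%, beside 9.21%, 1.76% and 5.19% of all genes called lower. Bcl11b is in both lists. Their part in these results was not tested.

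**Figure D4:**
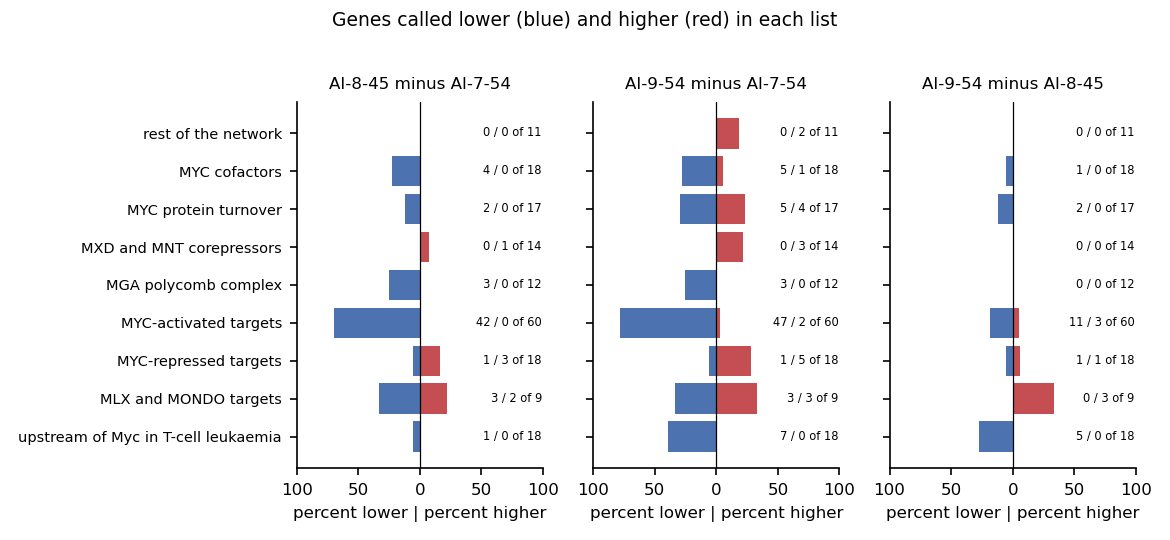
Percent of the measured genes (x axis) of each list (y axis) called lower (blue, left of 0) or higher (red, right of 0) at a limma adjusted p under 0.05, in the 3 comparisons, with the counts lower / higher of measured printed at the right. The MYC-activated targets have the longest bars, at 42 of 60 and 47 of 60 lower against AI-7-54.

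The genes most like a called member over the 11 arrays were found by the root mean square difference of log2 values after each gene was centred on its own mean. Nearest to Myc, which itself deviated by 0.27 from its mean, were Heg1 (0.06), Slc11a2 (0.07), Frmd4a (0.08), Prrt1 (0.10) and Slc16a5 (0.10). Nearest to Max (own deviation 0.13) were Nol8 (0.04), Gcsh (0.04), Rpusd2 (0.05), Ide (0.05) and Rpf2 (0.05). Nearest to Mxd4 (own deviation 0.18) were Irf9, Orai2, Sat1, Ctns and Adcy7 (0.05 to 0.06). The points share the arrays, their scaling and the replicate sets.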

How the data were processed

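Log2 values per probe set and array were deposited by the authors; RMA and Partek 6.6 are named in the submitters' processing notes, and the log2 scale was read from the values (3.23 to 13.8). A genome build is not given in the sources used here. Of 41345 probe sets, 23521 had 1 gene symbol, 1814 several and 16010 none here; Entrez identifiers (23328 matched to RefSeq's GRCm38.p6 table) gave current symbols, and the highest-mean probe set stood for each of 22180 genes. Differences came from limma 3.58.1 in R 4.3.3 (lmFit, eBayes) on all 11 arrays with compound and replicate set (1 and 2 against 3 and 4) as fixed factors (7 residual degrees of freedom), two-sided, adjusted by Benjamini-Hochberg across the 22180 genes, called at an adjusted p under 0.05. The set was added because it separated these arrays in earlier results, so p-values with it may be too small. Members and lists were chosen with earlier results of these data known. Of each list, up to 4 called genes per comparison and direction with the widest difference are named, and 5 genes most like each called member. The method was tested on simulated data, for AI-8-45 minus AI-7-54, AI-9-54 minus AI-7-54 and AI-9-54 minus AI-8-45 in that order. Of simulated log2 changes of 0.25, 48, 46 and 56% were recovered, and of those of 0.5, 84, 92 and 94%. False calls made up 2.92, 7.65 and 5.41% of the calls. Replicate numbers did not pair the arrays: 6 of 10 same-numbered pairs had deviations correlated over 0.1, as did 9 of 10 pairs of the same set but another number. Figures used matplotlib 3.10.9.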

Additional observations from a re-analysis of the deposited data

Results flagged for a closer look

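In the groups of 4 arrays, 2 of 18 tests of the members found an array far from the other 3, where chance flags about 1 in 20. Mxd1 on AI-8-45 replicate 3 measured 9.31 against 9.60 to 9.66 on the others, a gap of 0.837 of the group's range. Mxd3 on AI-8-45 replicate 4 measured 8.41 against 8.21 to 8.23, a gap of 0.922 of the range. AI-8-45 replicate 3 is also the array that stood apart on the third component.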

How the results depend on the processing

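Of 618 member values under the alternatives, 587 stayed on their side of the threshold, 15 lost the call, 16 gained it and 0 called values changed sign; 24 uncalled values, at most 0.07 in size as reported, changed sign. Members called between AI-8-45 and AI-7-54 (2) numbered 1 with the replicate block (Max lost, adjusted p 0.0694), 0 within replicates 1 and 2, 1 within 3 and 4, and 0 to 2 with 1 array left out (0 without AI-7-54 replicate 3 or 4). Between AI-9-54 and AI-7-54 (3) they were 5 with only the groups compared, the intensity trend or array weights, 6 among genes above the median, 0 within replicates 1 and 2, and 3 to 5 with 1 array left out (5 without AI-8-45 replicate 3). Between AI-9-54 and AI-8-45 (1) they were 0 without the set and within replicates 1 and 2. All genes called between AI-8-45 and AI-7-54 (1949) fell to 1255 without the set, 2 within replicates 1 and 2, 613 within 3 and 4, and 1127 to 1896 with 1 array left out (1127 without AI-7-54 replicate 3). Between AI-9-54 and AI-7-54 (4036) they were 593 and 2189 within the sets. Between AI-9-54 and AI-8-45 (816) they were 290 without the set, 517 with the replicate block, 6 and 143 within the sets, 1231 above the median, and 476 to 838 with 1 array left out (476 without AI-8-45 replicate 1, 504 without AI-9-54 replicate 3). MYC-activated targets called lower were 0 (AI-8-45 minus AI-7-54) and 15 (AI-9-54 minus AI-7-54) within replicates 1 and 2. Between AI-9-54 and AI-8-45 they were 7 without the set, 0 within either set and 5 to 13 with 1 array left out. Fits within a set hold 5 or 6 arrays, and the lone AI-7-54 array of replicates 1 and 2 is assumed to vary like the other groups. Mycn could not be fitted among genes above the median, since it lies below it. The causes were not tested. The replicate block changed no other call of a member. Members called between AI-8-45 and AI-7-54 numbered at most 3 over the 12 alternatives that keep all arrays or fit a subset. Dependence on the set was found for 0 members under either alternative.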
